A study of Daphnia magna with 16 samples.

Results

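Of the 51424 probes on a *Daphnia magna* expression array, 2 are described here: CUST_5069_PI429715507, annotated as hydroxymethylglutaryl-CoA synthase 1, and CUST_118326_PI429715507, annotated as diphosphomevalonate decarboxylase-like isoform X1. They were chosen by these names, which the supplementary files of the study give to probes listed as lower in the mutants than in the wild type. In the 10 sheets of values matched below, however, CUST_5069 is not listed under its own identifier. The names are the study's own, since the array files and the reference table used here pair no probe with a gene. On its own deposited values, the synthase probe was measured well above background on all 16 arrays and was lower on every mutant array than on every wild type array. On its own deposited values, the decarboxylase probe was at background on all 16 arrays, so its level was not measured in any clone.

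The mevalonate pathway builds isoprenoids from acetyl-CoA. Acetyl-CoA acetyltransferase joins acetyl-CoA units, hydroxymethylglutaryl-CoA (HMG-CoA) synthase adds another, and HMG-CoA reductase, usually regarded as the rate-limiting enzyme, makes mevalonate. Mevalonate kinase and phosphomevalonate kinase then phosphorylate mevalonate, and diphosphomevalonate decarboxylase converts the product into isopentenyl diphosphate, the building block of all isoprenoids. Arthropods do not make sterols from it and take them from food, but they use the pathway for dolichol, ubiquinone and protein prenylation, and crustaceans for methyl farnesoate, a hormone of the juvenile hormone family.

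The arrays measured whole-body RNA of single females, 4 per clone, numbered 3, 5, 7 and 9. The wild type W is clone F (+/+), from which the mutants were made with CRISPR-Cas9 directed at the tryptophan hydroxylase gene, which encodes the enzyme that starts serotonin synthesis. T+ is clone 13 (+/-), while clone 16 and clone 17 carry mutations in both copies (-/-). The +/- genotype is 1 clonal line and -/- is 2, so for T+ genotype and line cannot be told apart, and the labels do not say whether the females of a clone were reared in separate vessels. The labels give the age as 5 days in one field and 4 days in another, while the methods describe adult females taken after a reproduction test. In whole-body RNA, fewer cells of a type and less RNA per cell cannot be told apart. No probe is annotated as tryptophan hydroxylase in the sources used here, so the targeted gene was not checked.

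The noise level of each array, taken as the 95th percentile among its negative controls, lay between 31.8 and 129 units of processed signal, and between 9888 and 14668 probes per array were well above background. W replicate 7 had the highest noise level and the fewest such probes. Its pathway probe signals are recorded with fewer digits than those of the other arrays, and no slide is recorded for it. Whether this array was handled differently was not tested. On the first principal component, computed without the pathway probes and holding 60.3% of the variance, T+ replicate 5 (89.7) and clone 17 replicate 5 (95) lay among the clone 16 arrays (78.9 to 107) and not with the other T+ and clone 17 arrays (-103 to -61.4). The contrasts of the synthase probes among mutant clones are therefore given with and without these arrays.

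The synthase probe had processed signals, which are fluorescence units after the scanner software's background correction, of 503, 442, 574 and 345 in W replicates 3, 5, 7 and 9. In T+ they were 102, 150, 107 and 89.2. In clone 16 the signals were 210, 193, 274 and 267, and in clone 17 they were 146, 192, 113 and 118. Every mutant animal gave less signal than every W animal. The lowest W signal, 345, was measured in replicate 9, and the highest mutant signal, 274, in clone 16 replicate 7. The mark for a spot well above background was set on all 16 arrays, as for 15.6% of all probes.

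After log2 transformation and quantile normalization the W animals had synthase levels of 8.84, 8.75, 8.82 and 8.76, with a mean of 8.79 ± 0.046 (SD, n = 4). The T+ levels were 6.90, 7.27, 7.01 and 6.61, with a mean of 6.95 ± 0.27 (SD, n = 4). In clone 16 they were 7.67, 7.48, 8.10 and 7.68, with a mean of 7.73 ± 0.26 (SD, n = 4). In clone 17 they were 7.26, 7.73, 6.88 and 6.87, with a mean of 7.18 ± 0.41 (SD, n = 4). The 4 W animals were close together. Among the 17270 tested probes without a missing value, 0.909% had a lower SD in W, and their median SD in W was 0.41. This is a description only, since a listing by a test against W on these arrays favours probes with a small spread in W. The mutants were not unusually close, since the median SD over these probes was 0.27 for T+ and for clone 17 and 0.22 for clone 16.

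Relative to W, the synthase level of T+ was lower by a log2 difference of -1.85, which is 27.8% of the W level. That of clone 16 differed from W by -1.06 (47.9% of W) and that of clone 17 by -1.61 (32.8% of W). These differences are a description, as the probe was chosen for them, and no test was made of them. No T+ array overlapped with W, which held in the lower direction for 3.38% of probes. The same was so for clone 16 (4.81% of probes) and clone 17 (1.80%), and all 3 clones lay below W together for 0.805% of probes. The gap between the lowest W array and the highest mutant array was 1.48 for T+, 0.65 for clone 16 and 1.02 for clone 17 on the log2 scale. Within the slide labelled 1 here, T+, clone 16 and clone 17 differed from W by -2.04, -1.22 and -1.49. Within slide 2 the differences were -1.62, -0.87 and -1.69, with a single W array there, since no slide is recorded for W replicate 7.

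**Figure D1:**
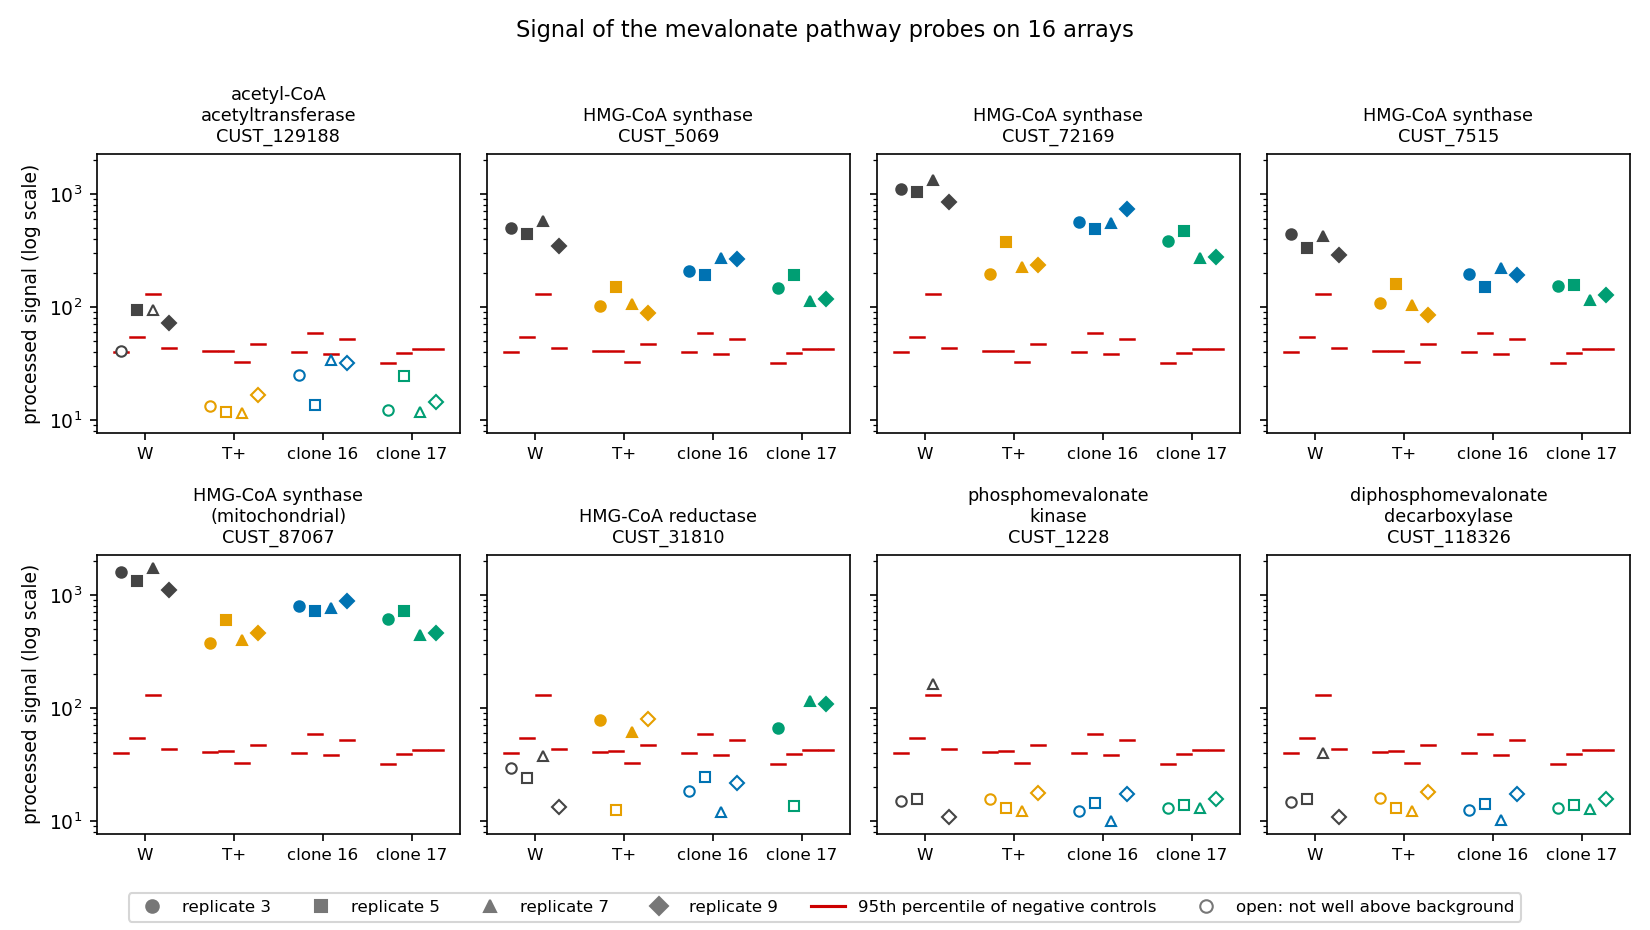
Processed signal (log axis) of the 8 mevalonate pathway probes on each of the 16 arrays, by clone and with the symbol giving the replicate number. The red bars mark the 95th percentile of the negative controls of that array, and open symbols are spots not well above background. The synthase probes lie above the bars on every array, the reductase probe on 6 mutant arrays, and the decarboxylase probe CUST_118326 on none.

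The comparison of mutant clones was not used to choose the probe and was tested with limma over 17286 probes, with Benjamini-Hochberg adjustment and a fold limit of 1.5. In clone 16 the synthase level was 0.78 higher than in T+ on the log2 scale, a ratio of 1.72 (95% interval 0.36 to 1.21, SE 0.20, adjusted p = 0.13 by limma), and it was not called. All 4 clone 16 arrays lay above all 4 T+ arrays, as they did for 6.19% of probes. The difference was 0.82 within slide 1 and 0.75 within slide 2. limma called 8 of 17286 probes (0.0463%) in this contrast, and 3572 (20.7%) had an unadjusted p under 0.05.

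Clone 17 lay between T+ and clone 16. Its synthase level was 0.24 above that of T+ (95% interval -0.19 to 0.66, adjusted p = 0.999 by limma), with arrays that overlapped, so that a difference of up to 0.66 on the log2 scale remains within the interval. limma called 5 probes (0.0289%) in this contrast and 549 had an unadjusted p under 0.05. The difference was 0.55 within slide 1 and -0.07 within slide 2. Against clone 16, the synthase level of clone 17 was lower (-0.54, 95% interval -0.97 to -0.12, adjusted p = 0.235 by limma), where 1 probe (0.00579%) was called and 2764 had an unadjusted p under 0.05. The mean of both clones with -/- genotype was 0.51 above T+ (95% interval 0.14 to 0.88, adjusted p = 0.54 by limma), where 9 probes (0.0521%) were called. Of the variance of the synthase level over the 12 mutant arrays, 58.2% lay between clones, with a median of 25.8% over tested probes.

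T+ replicate 5 had the highest synthase level of T+ (7.27) and clone 17 replicate 5 the highest of clone 17 (7.73). These are the animals that stood apart on the first principal component. Without both of them, an alternative added after the data were seen, the difference of clone 16 from T+ was 0.89 and that of clone 17 from clone 16 was -0.73. Both arrays were left out because they lay with clone 16, so their removal itself favours a difference from clone 16. P-values of this alternative are therefore not given. The number of probes called by limma rose at the same time from 8 to 3193 and from 1 to 2696. The difference of clone 17 from T+ was 0.16, and the mean of clones 16 and 17 was 0.53 above T+.

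The gene model of the synthase probe, Dapma7bEVm000199, was represented by 3 other probes, CUST_72169_PI429715507 and CUST_7515_PI429715507, with the same name, and CUST_87067_PI429715507, which is named as the mitochondrial synthase in the supplementary files. In animals, the mitochondrial form of the enzyme, known from vertebrates, serves ketone body synthesis, whereas the cytosolic form serves the mevalonate pathway. All 4 probes are assigned to 1 gene model, which was not checked against probe sequences. They are treated here as repeated readings of it and not as separate genes. All of them were well above background on all 16 arrays.

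CUST_72169 gave mean levels of 10.01, 8.12, 9.01 and 8.47 in W, T+, clone 16 and clone 17. CUST_7515 gave 8.45, 6.96, 7.41 and 7.16 in the same order. CUST_87067 gave 10.42, 8.96, 9.47 and 9.15. The order of the clones was the same on all 4 probes, with T+ lowest, then clone 17, clone 16 and W, and every mutant array lay below every W array on each of them. The differences from W, again with no test, ranged from -1.89 to -1.46 in T+, from -1.06 to -0.95 in clone 16 and from -1.61 to -1.27 in clone 17.

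**Figure D2:**
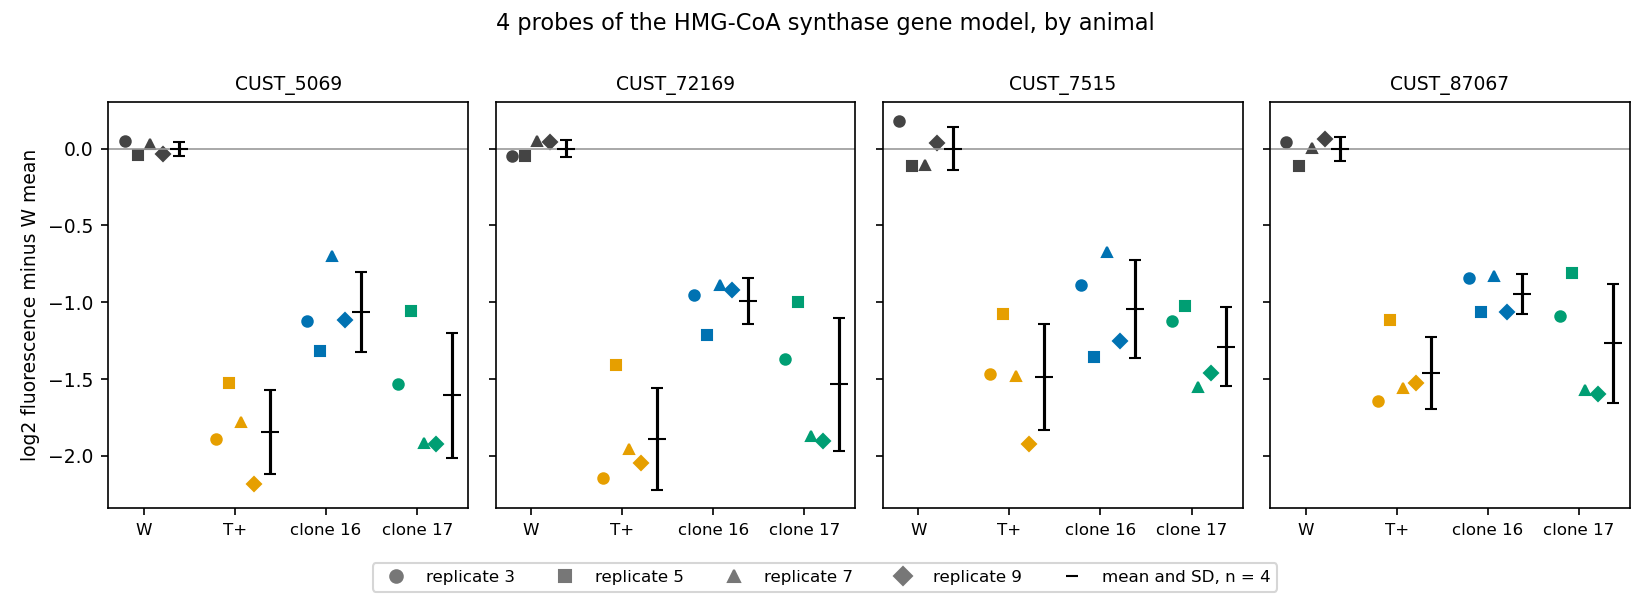
Normalized log2 fluorescence of the 4 synthase probes, minus the W mean of that probe, for each animal by clone. Bars give the mean and SD (n = 4). Every mutant animal lies below every W animal on each probe, and replicate 5 is the highest T+ and the highest clone 17 animal on all 4.

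Neighbouring clones in this order differed less clearly. Clone 16 was above T+ by 0.90 on CUST_72169 (SE 0.20, adjusted p = 0.13 by limma), by 0.45 on CUST_7515 (SE 0.20, adjusted p = 0.219) and by 0.51 on CUST_87067 (SE 0.17, adjusted p = 0.132). The arrays of these clones did not overlap on CUST_72169 and CUST_87067 but did on CUST_7515. Without replicate 5 of both T+ and clone 17, this difference was 1.06 on CUST_72169, 0.58 on CUST_7515 and 0.63 on CUST_87067. As that removal itself favours a difference from clone 16, calls and p-values of it are not given here either. Clone 17 differed from T+ by 0.36, 0.20 and 0.19 and from clone 16 by -0.54, -0.25 and -0.32 on the 3 probes, and each of these contrasts missed the adjusted threshold. Without the same arrays, clone 17 differed from clone 16 by -0.72 on CUST_72169, -0.34 on CUST_7515 and -0.47 on CUST_87067. The mean of clones 16 and 17 was above T+ by 0.63 on CUST_72169 (adjusted p = 0.54 by limma), and by 0.70 without those arrays. Replicate 5 was the highest animal of T+ and of clone 17 on all 4 probes. Over the 12 mutant arrays the pairwise Pearson r of the 4 probes was 0.823 to 0.964, and 0.75 to 0.959 after each probe was centred on its clone means. These values describe readings assigned to 1 gene model in the same animals.

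**Figure D3:**
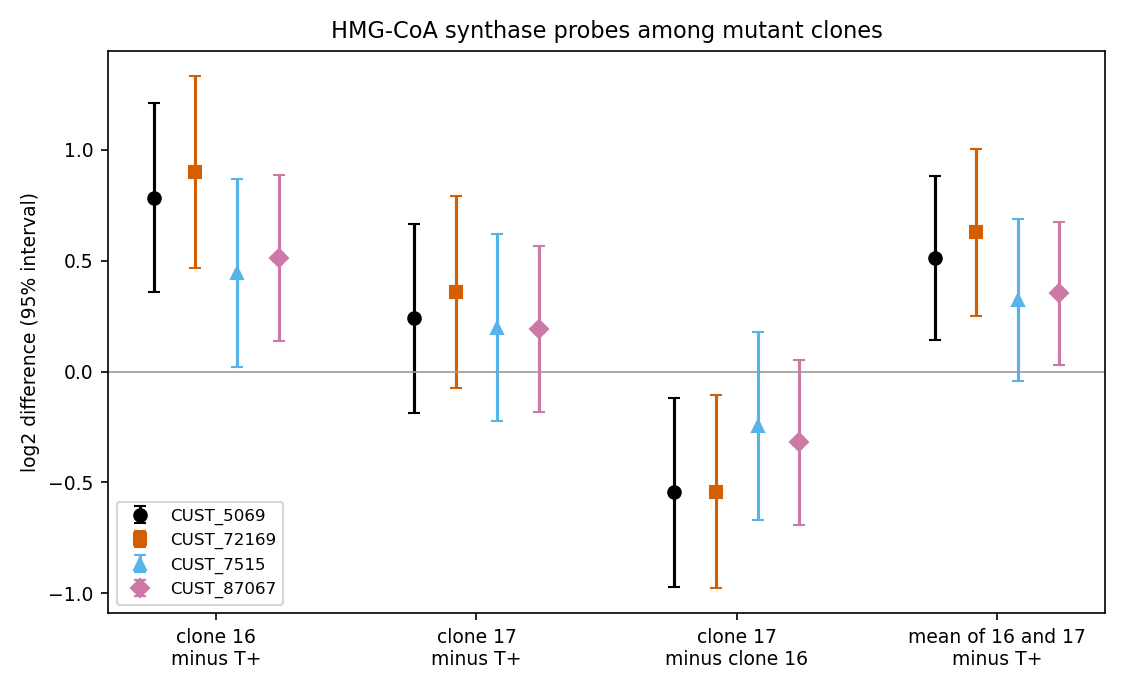
Differences among mutant clones in log2 fluorescence for the 4 synthase probes, with 95% intervals from limma (4 arrays per clone, unadjusted). The differences of clone 16 from T+ lie between 0.45 and 0.90 with intervals above 0, while all 4 intervals of clone 17 against T+ include 0.

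The 5 probes with the level most like that of CUST_5069 were sought among 8038 other probes well above background on every array and with a value on each. CUST_72169 came first with a Pearson r of 0.985 over 16 arrays, then CUST_87067 with 0.979 and CUST_7515 with 0.972. The next were CUST_17892 with 0.970 and CUST_56817 with 0.963, which are both assigned to the gene model Dapma7bEVm000421 and have no gene name in the sources used here. Because the W arrays lie far from the rest, these values rest partly on the difference from W. Over the 12 mutant arrays alone, CUST_72169 ranked 2 with an r of 0.948 and CUST_17892 ranked 11 with 0.942. CUST_56817 then ranked 34 with 0.925, CUST_87067 ranked 48 with 0.918 and CUST_7515 ranked 107 with 0.895.

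Upstream of the synthase, the cytosolic acetyl-CoA acetyltransferase probe CUST_129188 had processed signals of 40.5, 93.2, 93.7 and 72.2 in W. They were 13.3, 11.9, 11.6 and 16.8 in T+. In clone 16 they were 25.1, 13.6, 33.7 and 32.3, and in clone 17 they were 12.1, 24.8, 11.8 and 14.3. Only W replicates 5 and 9 were well above background, and no mutant array was above the noise level. The probe exceeded noise on 3 arrays and was not tested. No fold is given, since the mutant levels were not measured and only 2 of the 4 W levels were.

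Downstream of the synthase, the HMG-CoA reductase probe CUST_31810 took another course. Its processed signals in T+ were 78.5, 12.4, 61.6 and 79.2, and in clone 17 they were 66.9, 13.7, 115 and 107. In clone 16 they were 18.4, 24.3, 12 and 21.7, and in W they were 29.3, 24.0, 37.4 and 13.3. The probe was thus above the noise level in replicates 3, 7 and 9 of T+ and clone 17 only, and was well above background on 5 of these 6 arrays. Replicate 5 of both clones read like clone 16 and W.

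The normalized reductase level of W was 4.28 ± 0.43 and that of clone 16 was 4.19 ± 0.23, while T+ had 5.75 ± 1.30 and clone 17 had 5.91 ± 1.41 (SD, n = 4 each). The probe passed the noise filter only through the 6 arrays on which it was high, and on the others it read at the floor, so its differences from clone 16 and from W are given as these levels alone. Clone 17 differed from T+ by 0.15 (95% interval -1.26 to 1.57, adjusted p = 0.999 by limma). This sign turned when T+ replicate 5 (-0.50), clone 17 replicate 7 (-0.18) or clone 17 replicate 9 (-0.12) was left out.

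The 6 mutant arrays with a reductase probe above noise had levels of 6.61 to 7.26 on the synthase probe CUST_5069, and the 6 without it had levels of 7.27 to 8.10, with hardly a gap between them. On the 3 other synthase probes these sets of arrays overlapped. Clone 17 replicate 3, with a reductase signal above noise, read 8.64 on CUST_72169 and 9.33 on CUST_87067, above T+ replicate 5 with 8.60 and 9.31. On CUST_7515 it read 7.33, above clone 16 replicate 5 (7.10) and replicate 9 (7.20). In W, the reductase probe was below noise on all arrays and the synthase probes were at their highest. The same 6 and 6 mutant arrays are those on either side of the first principal component, and the part of that component in the pattern was not tested. That component held 60.3% of the variance, so other probes may separate the same arrays. The share of all tested probes that do so is not given here, and the split is not read as particular to the synthase.

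**Figure D4:**
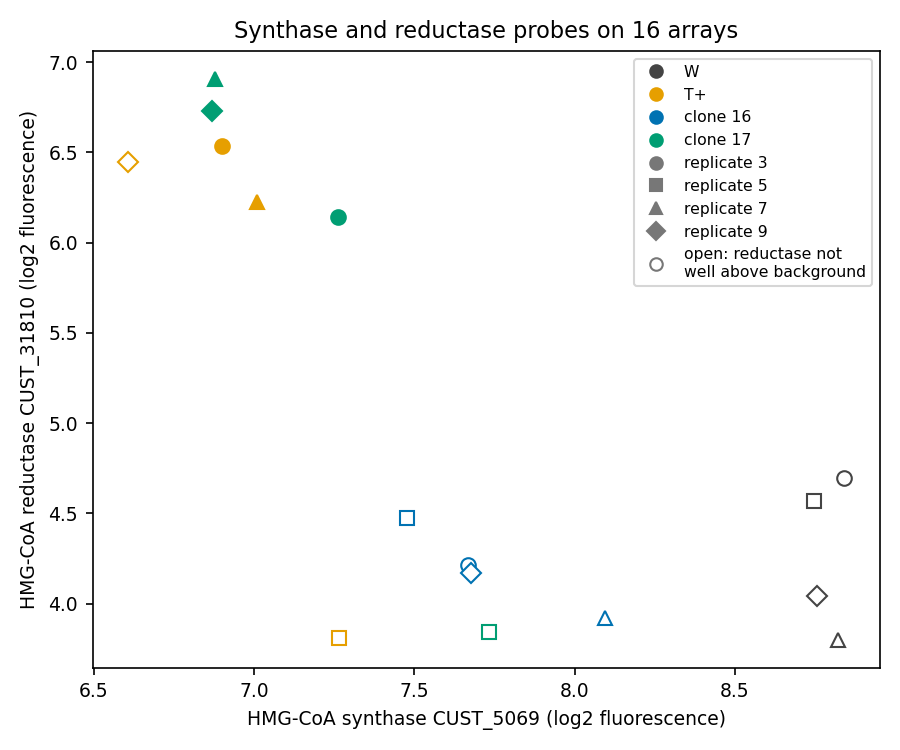
Normalized log2 fluorescence of the synthase probe CUST_5069 against the reductase probe CUST_31810 on the 16 arrays, by clone (colour) and replicate (symbol), with open symbols where the reductase probe was not well above background. The 6 arrays with a reductase level above 6 are replicates 3, 7 and 9 of T+ and clone 17 and have the lowest synthase levels, 6.61 to 7.26. These mutant arrays also lie on the same side of the first principal component, and the share of probes that separate them is not given.

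Of the 8 probes named for a pathway enzyme, 5 were tested, the 4 synthase probes and the reductase probe. None was called in any of the 4 contrasts among mutants by limma. At an unadjusted p under 0.05 by limma, the 4 synthase probes were higher in clone 16 than in T+ (20.7% of all tested probes differed). None of them differed between clone 17 and T+ (3.18% of all tested probes did). CUST_5069 and CUST_72169 differed between clone 17 and clone 16 (16.0%). These probes and CUST_87067 differed between the mean of clones 16 and 17 and T+ (9.18%). The reductase probe is left out here, since it passed the noise filter only through the arrays where it was high. As the 4 synthase probes are assigned to 1 gene model, these are not separate results. No probe is annotated as mevalonate kinase, isopentenyl diphosphate isomerase or a prenyl diphosphate synthase in the sources used here. The phosphomevalonate kinase probe CUST_1228 was well above background on no array. Its processed signal was 164 in W replicate 7, the array with the noise level of 129, and 9.99 to 17.7 on the 15 others.

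The decarboxylase probe CUST_118326 had processed signals of 14.8, 15.6, 39.9 and 10.9 in W replicates 3, 5, 7 and 9. In T+ they were 16.1, 12.9, 12.2 and 17.9. In clone 16 they were 12.5, 14.1, 10.2 and 17.2, and in clone 17 they were 12.9, 13.9, 12.8 and 15.5. The signals of the clones overlapped, and the value of 39.9 in W replicate 7 was under that array's noise level of 129. No array had the probe well above background, which was also so for 65.1% of all probes, and it exceeded the noise level on 0 of 16. It was therefore among the 34138 probes left out of the test.

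The normalized decarboxylase levels had means of 3.92 for W, 3.97 for T+ and 3.86 for clones 16 and 17, and ranged from 3.81 to 4.27 over the 16 arrays. Values at background have no order, so no fold is given and no difference between clones can be read from them. With the background filter removed, the adjusted p of the decarboxylase probe was 0.818 for clone 16 against T+, 1.0 for clone 17 against T+ and for clone 17 against clone 16, and 0.957 for the mean of clones 16 and 17 against T+ by limma. A change in this transcript was not detectable with this probe, which does not show that none took place.

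The question of whether the early and the late enzyme varied together could be asked only within these limits. Over the 12 mutant arrays, the Pearson r of the synthase and decarboxylase probes was -0.296 (permutation p = 0.371, two-sided) and Spearman's rho was -0.266 (permutation p = 0.406). After centring on the clone means r was -0.066 (exact permutation within clones, p = 0.746). It was -0.348 without the 2 arrays farthest from the median synthase level, -0.290 within slide 1 and -0.802 within slide 2 (6 arrays each). The sign of r turned with the background correction (0.232 with normexp), and 75th percentile scaling in place of quantile normalization gave -0.763 (permutation p = 0.00288). As the decarboxylase probe was at background on each array, r describes its background reading and not its transcript.

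The entries for these probes in the supplementary spreadsheet of the study were matched to the deposited normalized table. Of the 334 probes in the 10 sheets used, 319 had entries equal to their own deposited values (within 0.001) on all arrays in every sheet, and 15 did not in at least 1 sheet. For 3 of these 15, the entries were equal to the deposited values of another probe. The decarboxylase and the reductase probes are among these 3.

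The decarboxylase probe is listed in 4 sheets, as lower in T+, in TA-, in TB- and in all of them. Columns headed TA- and TB- there held the deposited values of clone 16 and clone 17, respectively. In each sheet 0 of its 16 entries equalled its own deposited values, and all 16 equalled those of CUST_87067, a synthase probe. The position of the decarboxylase probe below W in that listing is therefore that of CUST_87067, whose differences from W, computed here, were -1.46 for T+, -0.95 for clone 16 and -1.27 for clone 17. The reductase probe had 16 of 16 entries equal to its own in the sheet of probes higher in T+. In its 3 other sheets, all of lower probes, 0 of 16 were its own and 16 of 16 were those of the synthase probe CUST_5069.

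CUST_5069, CUST_7515 and CUST_87067 are listed under their own identifiers in 0 of these sheets, although the first and the third appear there by their values. CUST_72169, CUST_129188 and CUST_1228 matched their own deposited values in all 16 entries of each of their 4 sheets. The values normalized here differed from the deposited ones by at most 0.0044 for the synthase probe and 0.031 for the decarboxylase probe on any array, once both were centred on the probe's median. The identifiers on the array files and in the deposited table thus carried the same values, and the listing for the decarboxylase probe differed from both. How these entries came to differ was not tested.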

How the data were processed

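The authors deposited the spot intensity files of Agilent Feature Extraction (version 10.5 in the submitters' processing notes) and a table of log2 values, which per the methods are quantile normalized and relative to each probe's median. In the deposited intensity files, other columns used were the outlier and well above background marks. Processed signals, with a floor of 1, were averaged over repeated spots on the log2 scale without control spots and the 49 to 122 outlier spots per array, and were quantile normalized over the 16 arrays. No spot was saturated. Each pathway probe has 1 spot. Tested were the 17286 of 51424 probes that exceeded, on 4 or more arrays, the noise level given by the 95th percentile among 2840 negative controls.

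One model over all arrays was fitted with limma 3.58.1 in R 4.3.3, two-sided, with Benjamini-Hochberg adjustment. Calls needed an adjusted p under 0.05 and a change of 1.5-fold or more. Named were both probes, the 8 annotated pathway probes and the 5 probes most like the synthase probe. Likeness was not ranked for the decarboxylase probe, which was at background. The members and lists were chosen with earlier results of these data known. The 4 animals per clone limit the precision. P-values measure the spread between these animals only. In data simulated for clone 16 against T+ (17270 probes, 200 changed), limma called 43.6% of changes of 1 and 68.9% of changes of 2 on the log2 scale, and 5 unchanged probes. The simulated probes varied independently of each other, unlike those on the arrays, so these rates need not hold there. Columns of the spreadsheet with the authors' own tests were not used, and its entries served only for the match to deposited values.

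Alternatives were 75th percentile scaling, normexp background correction (offset 50), the deposited log2 values, omission of the background filter or its replacement by the software's mark, retention of outlier spots, models of only the clones compared, slide or replicate number as a block, weights for arrays, robust estimation with a variance trend, no fold limit, and single arrays left out.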

Additional observations from a re-analysis of the deposited data

How the results depend on the processing

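The synthase probe was chosen as lower than W, so a kept sign tests nothing. The T+ difference from W was -1.35 with normexp. With single arrays left out it was -1.95 to -1.73, for clone 16 -1.18 to -0.98 and for clone 17 -1.79 to -1.5. With array weights, the synthase difference of clone 16 from T+ was called (0.87, adjusted p = 0.000344 by limma), as was that of clone 17 from clone 16 (-0.75, adjusted p = 0.000964). Leaving out single arrays gave 0.66 to 0.89 for clone 16 against T+, with calls without T+ replicate 5 (0.89, adjusted p = 0.0112) and without clone 17 replicate 5 (0.78, adjusted p = 0.0338). With single arrays left out, clone 17 against clone 16 gave -0.73 to -0.42, called without clone 17 replicate 5. The ranges were 0.06 to 0.35 for clone 17 against T+ and 0.40 to 0.62 for the mean of clones 16 and 17 against T+. For clone 16 against T+, CUST_72169 was called with array weights (1.07), without T+ replicate 5 (1.06) and without clone 17 replicate 5 (0.90), and CUST_87067 with array weights (0.62) and without T+ replicate 5 (0.63).

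Counts of called probes depended on these arrays. For clone 16 against T+ the count went from 8 to 2642 without T+ replicate 5, to 891 without clone 17 replicate 5, to 3193 without both, and was at least 4 without another single array. It was 142 with only the clones compared and 4087 with array weights. For clone 17 against clone 16 it went from 1 to 405, 1792 and 2696 in the same order, with a lowest count of 1, and was 2 without the background filter, 13 with only the clones compared and 3464 with array weights. For clone 17 against T+ it was 5, with 1 to 6 when single arrays were left out, 1 without both, 2 with only the clones compared and 26 with array weights. For the mean of clones 16 and 17 against T+ it was 9, with 3 to 406 when single arrays were left out, 1498 without both, 5 with the slide as a block and 2278 with array weights.

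The replicate numbers were not taken to pair the animals, since neither the labels nor every pair of arrays bore it out. The deviations of same-numbered arrays from their clone means had a mean correlation of 0.167 (-0.346 to 0.795, 24 pairs), against -0.041 for other pairs. Of 16 arrays, 9 correlated best with their own number. Whether animals of the same number share something was not tested. With the replicate number as a block, 13, 3 and 6 probes were called for clone 16 against T+, clone 17 against T+ and clone 17 against clone 16, and no synthase contrast changed its call. The correlation of the synthase and decarboxylase probes was 0.0192 with the replicate block, 0.23 with normexp, -0.76 with 75th percentile scaling and -0.38 to -0.16 with single arrays left out. For the reductase probe, clone 17 against T+ ranged from -0.50 to 0.84 when single arrays were left out, and turned to -0.50, -0.18 and -0.12 without T+ replicate 5, clone 17 replicate 7 and clone 17 replicate 9. The causes were not tested. The decarboxylase contrasts, below noise on all arrays, have no alternatives. Signal over background limits it and the acetyltransferase and kinase probes.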
